A study of Homo sapiens with 2 samples.

Results

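The loci of 8 transcription factors of the germinal centre reaction were examined in 1 list of KMT2D binding peaks from OCI-LY7 cells. OCI-LY7 is an established lymphoma line of the GCB-DLBCL class (diffuse large B-cell lymphoma resembling germinal centre B cells), described in its labels as wild type and of tumour origin. The cells had been fixed with 1% formaldehyde for 10 min, and chromatin was precipitated with an antibody to the N-terminal part of KMT2D in 1 library. The other library, an input of the same line without antibody, entered no comparison. Membership was set by position alone: a peak belonged to a gene when its highest point lay in a fixed window around that gene on hg19. The windows were BACH2 (chromosome 6, 90.58 to 91.06 Mb), BCL11A (chromosome 2, 60.63 to 60.83 Mb), FOXO1 (chromosome 13, 41.08 to 41.29 Mb), MEF2B (chromosome 19, 19.2 to 19.33 Mb), MEF2C (chromosome 5, 87.95 to 88.25 Mb), IRF8 (chromosome 16, 85.88 to 86.05 Mb), MYBL1 (chromosome 8, 67.42 to 67.58 Mb) and LMO2 (chromosome 11, 33.83 to 33.97 Mb). They held 64 of the 24824 listed peaks. All 64 were among the 24772 on chromosomes 1 to 22 and X, which are the list used below. With 1 antibody library no replicate spread exists, so no value carries a test, and intervals cover counting error over peaks only.

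KMT2D (MLL4) is a histone methyltransferase that places methyl groups on lysine 4 of histone H3, chiefly at enhancers, and it is a frequent target of inactivating mutations in lymphomas of germinal centre origin. In the germinal centre, B cells alternate between rapid division with antibody gene mutation and selection by antigen and T cells, and a network of transcription factors holds them in that state until they leave as memory or plasma cells. BACH2 represses the plasma cell programme, and BCL11A is a zinc-finger repressor needed for early B-cell development. FOXO1 is a forkhead factor of the dark zone, where the cells divide. MEF2B and MEF2C are related MADS-box factors, of which MEF2B is recurrently mutated in these lymphomas. IRF8 is an interferon regulatory factor that acts with ETS-family partners, MYBL1 (A-MYB) is a MYB-family activator of dividing centroblasts, and LMO2 is an adaptor without DNA binding of its own that bridges other factors. Peaks alone give no cell type markers, so the label germinal centre could not be checked in these data.

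A window can hold neighbouring genes as well as the one it is named for, and where start sites lie in hg19 was not used here. In the gene order of RefSeq on GRCh38.p14, the nearest coding genes on either side were GJA10 and MAP3K7 for BACH2, TMEM161A and BORCS8 for MEF2B, TMEM161B and CETN3 for MEF2C, COX4I1 and FOXF1 for IRF8, FBXO3 and CAPRIN1 for LMO2, and VXN and VCPIP1 for MYBL1. MEF2B also overlaps the read-through gene BORCS8-MEF2B. On one side, MRPS31 was nearest to FOXO1 and PAPOLG to BCL11A. No value below says which of these genes a peak serves.

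Promoter sequence is shown for BACH2, FOXO1 and MEF2B, the 3 members with a single entry in the RefSeq promoter table, as the sequence context of their start sites. Of the 8 members, 6 matched that table by symbol, with 17 promoters in all. Each sequence is the 250 bases before the start, read 5′ to 3′ along the gene, with every CG dinucleotide (CG reads the same on both strands) in capitals. Because the table is on another build than the peaks, no peak was placed on these sequences.
BACH2 promoter, chr6:90296844-90297093 (GRCh38.p14, minus strand): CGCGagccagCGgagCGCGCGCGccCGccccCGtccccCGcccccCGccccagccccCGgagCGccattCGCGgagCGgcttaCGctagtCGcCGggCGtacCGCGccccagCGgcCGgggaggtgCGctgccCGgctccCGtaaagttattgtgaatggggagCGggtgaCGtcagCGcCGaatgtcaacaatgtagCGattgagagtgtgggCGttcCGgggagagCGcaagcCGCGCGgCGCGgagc
FOXO1 promoter, chr13:40666642-40666891 (GRCh38.p14, minus strand): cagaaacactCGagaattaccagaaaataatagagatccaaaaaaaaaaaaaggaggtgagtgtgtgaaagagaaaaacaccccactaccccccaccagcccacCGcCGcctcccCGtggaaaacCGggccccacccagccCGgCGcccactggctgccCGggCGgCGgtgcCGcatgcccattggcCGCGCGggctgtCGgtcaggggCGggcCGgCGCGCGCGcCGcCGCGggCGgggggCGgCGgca
MEF2B promoter, chr19:19170264-19170513 (GRCh38.p14, minus strand): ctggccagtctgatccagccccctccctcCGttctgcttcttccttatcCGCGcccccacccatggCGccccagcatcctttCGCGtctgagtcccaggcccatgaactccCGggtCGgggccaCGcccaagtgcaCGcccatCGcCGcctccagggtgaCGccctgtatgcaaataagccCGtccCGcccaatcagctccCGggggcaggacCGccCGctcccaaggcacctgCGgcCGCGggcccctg
The BACH2 stretch held 40 CG dinucleotides, and 2.16% of the 35116 promoters in the table held at least as many. FOXO1 had 27 (17.7% of promoters had as many or more) and MEF2B had 21 (30.2%), against a median of 11. These 3 promoters were all richer in CG than the median promoter. Both IRF8 promoters were poorer, with 2 and 4. The 7 MEF2C promoters ranged from 0 to 28 and the 5 BCL11A promoters from 5 to 21.

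Listed KMT2D peaks were denser in these windows than elsewhere on the same chromosomes. The 8 windows spanned 1.79 Mb and held 35.8 peaks per Mb (exact Poisson 95% interval 27.5 to 45.7), against 8.60 in the rest of the 8 chromosomes, a ratio of 4.16 (exact conditional 95% interval 3.20 to 5.31). Peaks covered 2.45% of the windows and 0.601% of the rest. The windows had been drawn around genes, while the rest includes long stretches without genes, and that part of the difference was not tested. Of the 8 windows, 7 held peaks, and in 6 of them the interval of the ratio to the rest of the chromosome lay above 1. BACH2 and LMO2 were the exceptions. All these intervals take peaks as independent, yet 82.8% of the 64 lay within 12.5 kb of another peak. The intervals are thus likely too narrow, and an interval above 1 is a description only. Among the highest-scoring 50% of peaks the interval stayed above 1 only for FOXO1, MEF2B and BCL11A, and included 1 for MEF2C (0.279 to 8.38), IRF8 (0.470 to 6.71) and MYBL1 (0.531 to 15.98).

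The order of the windows by density was MEF2B, IRF8, FOXO1, BCL11A, MYBL1, MEF2C, BACH2 and LMO2. MEF2B had 92.3 peaks per Mb (47.7 to 161.2), IRF8 had 64.7 (32.3 to 115.8) and FOXO1 had 61.9 (32.96 to 105.9). BCL11A followed with 35.0 (14.1 to 72.1), MYBL1 with 31.2 (10.1 to 72.9), MEF2C with 26.7 (11.5 to 52.5) and BACH2 with 16.7 (7.20 to 32.8). The intervals of every pair of neighbours in this order overlapped, and among windows with peaks only MEF2B with BACH2 and FOXO1 with BACH2 had intervals apart. The windows differ in length, from 130 kb for MEF2B to 480 kb for BACH2.

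**Figure D1:**
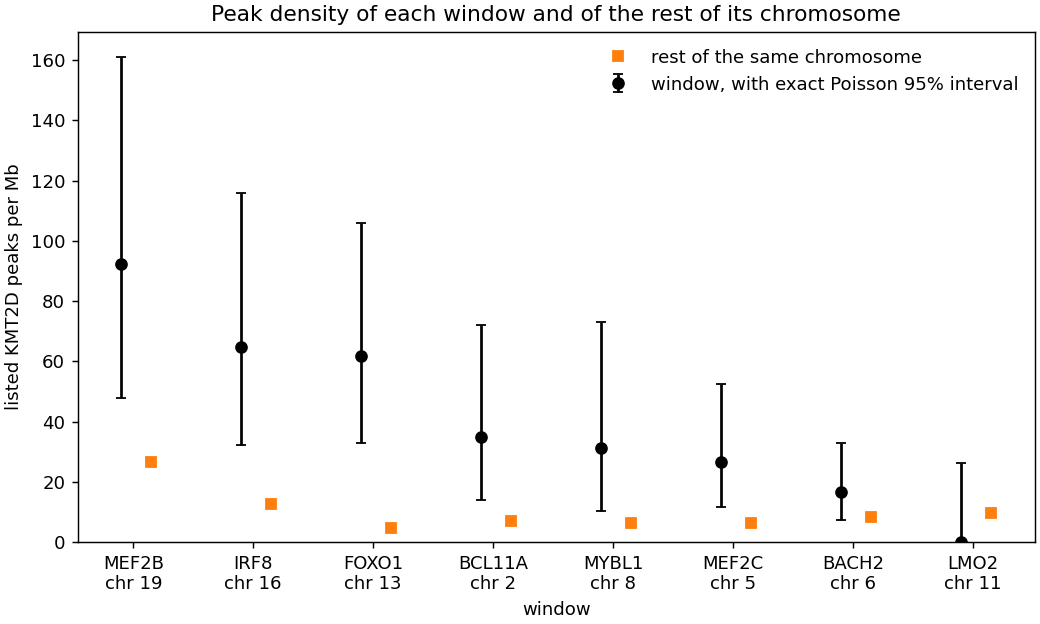
Listed KMT2D peaks per Mb in each window (circles, with exact Poisson 95% intervals, in order of density) and in the rest of the same chromosome (squares). All windows except LMO2 lie above their chromosome, and only in BACH2 and LMO2 does the interval reach down to the chromosome's value.

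Set against its own chromosome, FOXO1 led instead. Its density was 13.5 times that of the rest of chromosome 13 (7.13 to 23.3), which had 4.58 peaks per Mb. The ratio was 5.10 for IRF8 (2.54 to 9.16), 4.96 for BCL11A (1.99 to 10.3), 4.85 for MYBL1 (1.57 to 11.4) and 4.26 for MEF2C (1.83 to 8.41). The FOXO1 interval overlapped each of these. Among the highest-scoring 25% of peaks FOXO1 held 0 and MEF2B 4, so the lead of FOXO1 did not hold under that cut. MEF2B, first in density, lies on the peak-rich chromosome 19 with 26.5 peaks per Mb in the rest and had a ratio of 3.48 (1.79 to 6.09). For BACH2 the ratio was 2.04 (0.880 to 4.04), an interval that includes 1, and with the window extended by 50 kb on both sides it was 2.33 (1.16 to 4.18).

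Each chromosome was also laid out end to end in stretches as long as the member's window, as a background that holds genes and deserts alike. On chromosome 13, 2 of 451 such stretches (0.443%) held as many peaks as FOXO1 or more. The share was 4.78% for BCL11A, 4.87% for MEF2B, 5.67% for IRF8, 6.36% for MYBL1 and 6.64% for MEF2C. For BACH2 it was 17.7%, so a count of 8 peaks in 480 kb was not unusual there.

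By height, the 64 peaks lay near or below the list. Height is given in the deposited units, and heights ran from 17 to 158. The median of the 64 was 33 (95% interval 30 to 45), an interval that includes the 39 of the list. The list's upper quartile of 59 was reached by 12 of the 64 (18.8%, exact binomial 95% interval 10.1 to 30.5%), beside 25.9% over the list. Against the upper quartile of each peak's own chromosome the count was 13 (20.3%), beside 25.5% over the list. Of the 64, 25 (39.1%; 27.1 to 52.1%) stood above the median of their chromosome, beside 49.3% over the list. These shares lay near or below the background, and the intervals given included it. Over all listed peaks, the windows thus did not exceed the background in height. Among the highest-scoring 25% of peaks, 11 were left in the windows. Their median height was 89 (61 to 117), an interval that includes the 75 of the list. The median height was below that of the chromosome in 5 of the 7 windows with peaks. It was above it in BCL11A (52 against 36) and, narrowly and over 5 peaks, in MYBL1 (36 against 35).

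**Figure D2:**
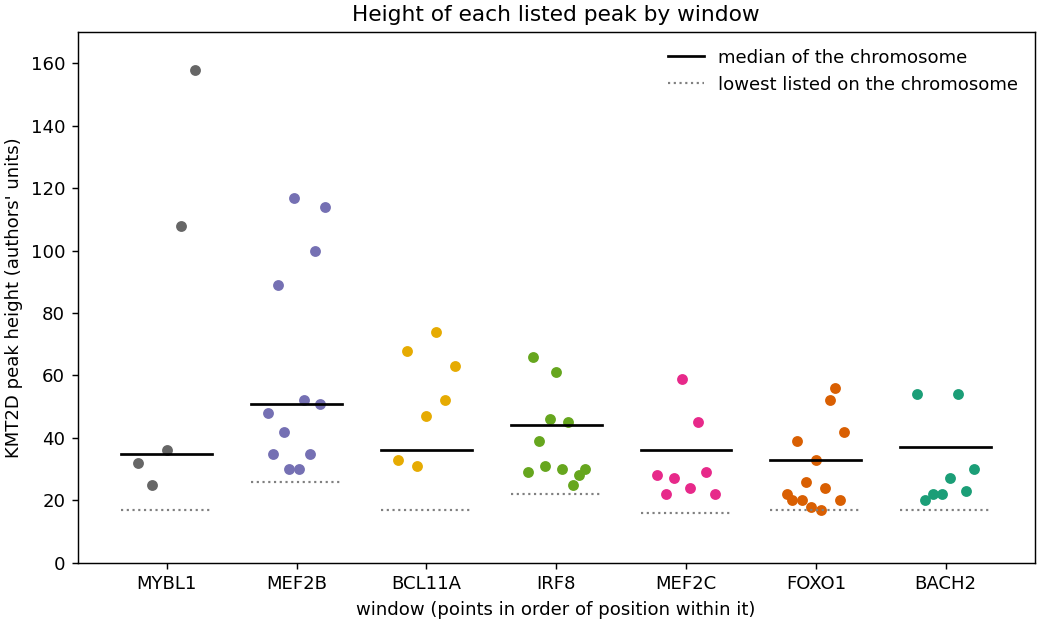
Height of each listed peak by window, in the authors' units, ordered by the tallest peak, with the median (solid line) and the lowest listed height (dotted line) of the window's chromosome. MYBL1 and MEF2B hold the 6 tallest points, and most points of BACH2, FOXO1, MEF2C and IRF8 lie under the solid line.

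Most peaks in the windows had close neighbours. Of the 64, 53 (82.8%; 71.3 to 91.1%) lay within 12.5 kb of another peak, beside 63.4% over the list. With stitching at 5 kb the shares were 60.9% (47.9 to 72.9%) and 50.8%, no longer apart by this interval. Of the 64, 16 (25%; 15.0 to 37.4%) started under 500 bp after the peak before, beside 15.0% over the list. Widths of up to 200 bp were found for 16 (25%; 15.0 to 37.4%), beside 21.0%. The lower limit of the first of these shares lay at the background, and the second lay near it. At the other end, 5 peaks (7.81%; 2.59 to 17.3%) were wider than 2000 bp, beside 2.22% over the list. These 5 lay 1 each in BCL11A, BACH2, MEF2C, MYBL1 and FOXO1, with none in MEF2B or IRF8. Their heights were 74, 54, 59, 108 and 56, and only that of MYBL1 was above the median of 75 for the 549 such peaks in the list.

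**Figure D3:**
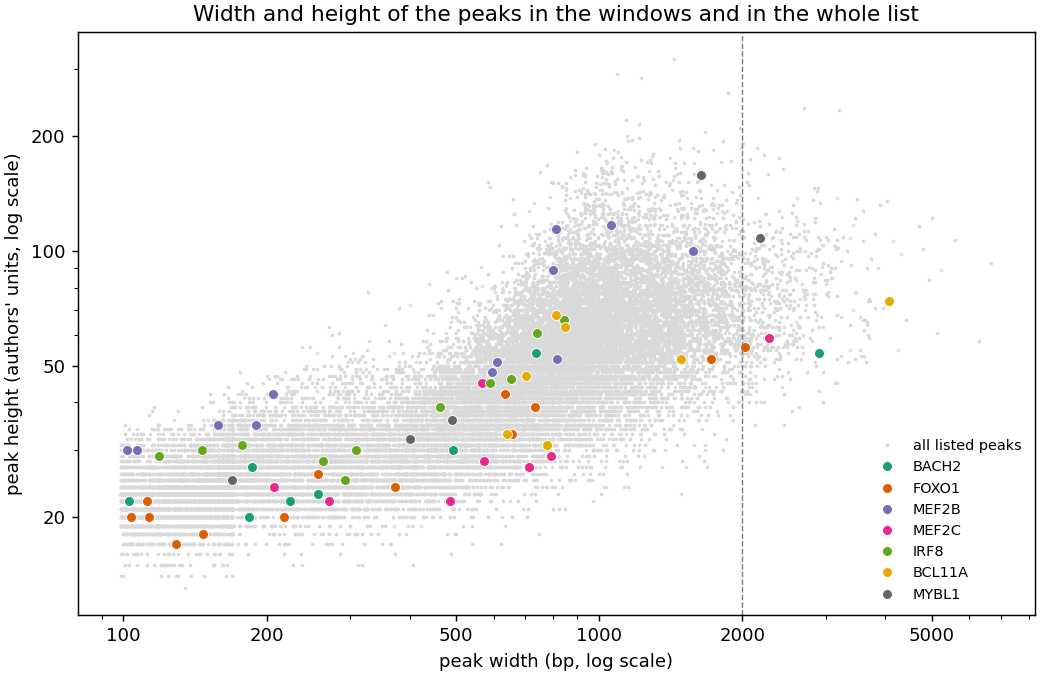
Width (bp) and height (authors' units) of the peaks in the windows, coloured by gene, over all listed peaks (grey), on log axes; the dashed line marks 2000 bp. The 5 peaks right of the line belong to FOXO1, MYBL1, MEF2C, BACH2 and BCL11A, and the tall MEF2B peaks stand left of it.

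Among the repressors, BACH2 had 1 peak near one end of its window and the other 7 far from it. Its 8 peaks had heights of 20 to 54. The top height of 54 was shared by one peak of 738 bp at chr6:90604890-90605628, alone near the low-coordinate end, and another of 2903 bp at chr6:91004855-91007758. Between the first and the next listed peak lay 320 kb, or 66.8% of the window, without any. The wide peak belonged to a cluster of 4 peaks at chr6:91004515-91014568. Its companions were low, with heights of 27, 23 and 30, and the wide peak alone supplied 57.1% of the bases covered by BACH2 peaks. The third tallest was that of height 30 at chr6:91014075-91014568. Just outside, a peak of height 30 at chr6:91060378-91060768 missed the window by 0.678 kb.

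BCL11A had the widest peak of all members. It was 4062 bp wide, at chr2:60776333-60780395, with a height of 74 and a significance value of -56.5. The significance value is a deposited score per peak that reads like the base-10 logarithm of a p-value, and more negative is stronger. Peaks of 1486 and 849 bp, with heights of 52 and 63 (the latter at chr2:60782193-60783042, the third tallest), followed after gaps of 165 and 147 bp. Together the 3 covered 95.3% of a stretch of 6.71 kb, at chr2:60776333-60783042. The second tallest peak stood apart, at chr2:60666318-60667129 with a height of 68. All 7 BCL11A peaks were at least 641 bp wide, whereas the other 6 windows with peaks each held one of 207 bp or less. The lowest BCL11A peak, of height 31, was taller than the medians of BACH2 (25), FOXO1 (24) and MEF2C (27.5).

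FOXO1 had the most peaks of the 8 members, 13, spread over 173 kb of its window, and the lowest median height, 24. Chromosome 13 also had the lowest median height of the 8 chromosomes, 33, so this rank does not compare like levels. The 2 tallest were adjacent: 1 of 2022 bp at chr13:41239869-41241891 with a height of 56, and, 151 bp away, 1 of 1722 bp at chr13:41237996-41239718 with a height of 52. They belonged to a cluster of 6 peaks over 16.6 kb, at chr13:41226144-41242750. The third, of height 42, lay alone at chr13:41271631-41272266. The other 10 had heights of 17 to 39. The lowest equalled the lowest height listed anywhere on chromosome 13.

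MEF2B had 12 peaks, and 4 of them were much taller than the other 8. The tallest, at chr19:19271029-19272089, was 117 high, followed by 114 at chr19:19325474-19326285, 100 at chr19:19302598-19304172 and 89 at chr19:19266177-19266976. Within chromosome 19 these stood at percentiles 95.8, 95.1, 92.3 and 87.04 of height. For comparison, the tallest BCL11A peak, of height 74, stood at percentile 88.3 of chromosome 2. The other 8 had heights of 30 to 52, beside a median of 51 for the chromosome. Tall and low peaks were interspersed along the window. The widest of the 12 was 1574 bp, the peak of height 100. The largest cluster held 8 peaks over 20.2 kb, at chr19:19265729-19285904, and the peaks of height 100 and 114 belonged to a cluster of 3 beyond it. The first 49.0 kb of the window held no peak.

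MEF2C, the paralogue, differed in setting. Its 8 peaks were the only ones listed within 2.14 Mb: the nearest outside the window lay 385 kb below it and 1456 kb above it. Among the other windows, the peaks outside that bounded them were 0.195 to 0.520 Mb apart. The tallest MEF2C peak was also the widest, 2277 bp at chr5:87969895-87972172 with a height of 59, and it sat in a cluster of 5 peaks over 21.2 kb at chr5:87955354-87976582. Next were a lone peak of height 45 at chr5:88122886-88123454 and one of height 29 at chr5:88178851-88179645. Between the cluster and the lone peak lay 146 kb without a peak. Heights of the remaining 5 were 22 to 28. The heights of MEF2B (30 to 117) and MEF2C (22 to 59) overlapped, but their chromosomes had different floors (26 and 16) and medians (51 and 36), so the levels are not directly comparable.

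IRF8 had 11 peaks, 10 of them in 2 groups. The median height was 42.5 in the first group and 29 in the second, beside 44 for chromosome 16. A cluster of 6 over 22.2 kb, at chr16:85922551-85944736, held both peaks above 60: 66 at chr16:85932321-85933163, which at 842 bp was also the widest, and 61 at chr16:85943997-85944736. The third tallest, of height 46 at chr16:85942061-85942713, belonged to it as well. A further cluster of 4 peaks began 77.6 kb after the first ended, at chr16:86022356-86029865, with heights of 25 to 45. A single peak of height 30 lay between them. The IRF8 peaks had a median width of 308 bp, beside a median of 611.5 bp for chromosome 16. A peak of height 32 at chr16:86050197-86050340 lay 0.223 kb beyond the window.

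MYBL1 had 5 peaks, among them the tallest and the fourth tallest of all 64. A peak of 1641 bp at chr8:67578523-67580164 reached a height of 158, rank 83 in the list and 4.51 times the median of chromosome 8, with a significance value of -108.2. It lay at the edge: its highest point was 542 bp inside the window, and the peak ended beyond it. Its place among the members thus rests on where the window ends. On this side VCPIP1 follows MYBL1 in the gene order, and which gene the peak serves was not tested. The second tallest peak of the window, of 2175 bp at chr8:67524558-67526733, had a height of 108 and stood in the top 2% of its chromosome (percentile 98.2). The remaining 3 formed a cluster over 21.7 kb at chr8:67435230-67456890, with heights of 32, 25 and, at chr8:67456399-67456890, 36. Without the peak at the edge, MYBL1 would hold 4 peaks and a tallest height of 108. Its median height would then lie below the 35 of chromosome 8 rather than above it.

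LMO2 was the only member without a listed peak. The interval for 0 peaks in 140 kb reached up to 26.3 peaks per Mb, above the 9.68 of the rest of chromosome 11, and 61.2% of the 958 stretches of that length on chromosome 11 were likewise empty. The nearest peaks lay 33.9 kb below the window, with a height of 40 at chr11:33795638-33796577, and 103 kb above it. The latter, at chr11:34072642-34075066, was 2424 bp wide with a height of 105 (percentile 96.8 of its chromosome). Between both, 276 kb had no listed peak. The list holds only peaks that passed the authors' threshold, at a depth that is not known, so weaker binding at LMO2 was not detectable here.

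**Figure D4:**
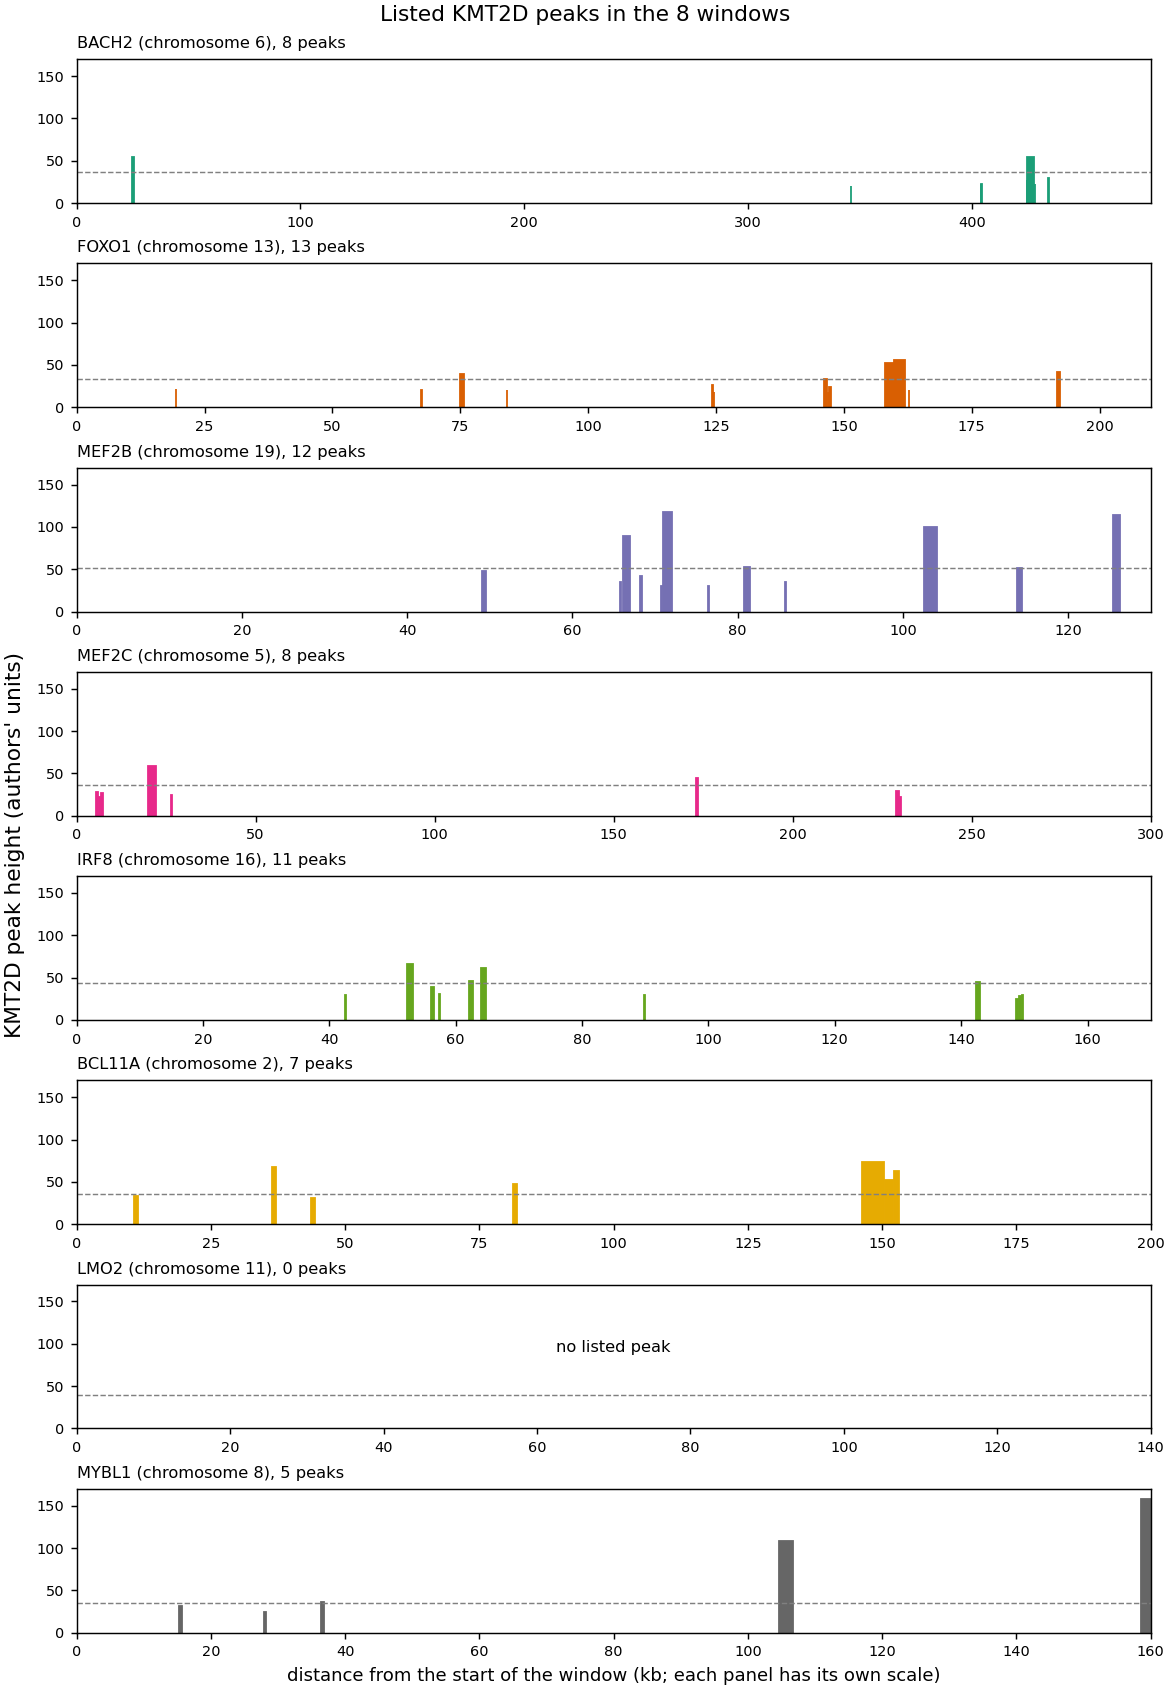
Position (kb from the start of each window) and height (authors' units) of every listed KMT2D peak in the 8 windows; bars span the peaks, with a thin outline that keeps narrow ones visible, and the dashed line is the median height of the chromosome. The longest stretch without a peak takes up 66.8% of the BACH2 window, 48.8% of MEF2C, 42.3% of MYBL1 and 37.7% of MEF2B. In BCL11A it takes up 32.2%, in IRF8 30.8% and in FOXO1 22.8%, and LMO2 is empty.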

How the data were processed

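The data were 1 list of KMT2D peaks with 11 columns and no header, from 1 antibody library. The submitters' processing notes name CASAVA 1.8.2 and hg19; the sources used here do not give the aligner, the peak caller, its threshold or how the input was used. The authors deposited per peak a whole-number signal, read from its values as height, 2 score columns (1 is the significance value), and a percent, the place of the highest point between start and end. The normalization of the signal and the depth are unknown. Coordinates are printed as listed, and their base (0 or 1) is not stated.

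Members and windows were chosen with earlier results of these data known. In each window the 3 tallest peaks, the widest and the cluster with the most peaks were named; any other named peak was picked with its values in view. A chromosome's length was taken between its outermost listed peaks. Peaks at most 12.5 kb apart were stitched into clusters. Intervals are exact (Poisson, binomial, conditional) or from order statistics, at 95%, and all take peaks as independent, which clustered peaks need not be. The functions were tested on simulated data. Alternatives were cuts on score or height, merging, overlap, wider windows and other stitching distances; ratios of single windows under 4 of these were added after seeing the data. Software was scipy 1.17.1, numpy 2.4.6 and pandas 2.3.3 under Python 3.11.15, with matplotlib 3.10.9 for figures.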

Additional observations from a re-analysis of the deposited data

How the results depend on the processing

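A value counted as moved when it left its own interval, when a count changed by over 1.5 times, or, for the covered share, when it changed at 3 digits. Of 38 alternative values for the windows together, 18 stayed and 20 moved. Fewer peaks follow from the cuts by construction; for other shifts the cause was not tested. With the highest-scoring 50% of peaks, 25 peaks were left (13.97 per Mb, ratio to the rest 3.12, median height 56, 1.73% covered, 60% clustered against 36.5% over the list). With the highest-scoring 25%, 11 were left (6.15 per Mb, ratio 2.73, median height 89, 0.843% covered, 36.4% clustered against 23.8%). The 89 lay above the list's 75, but its interval (61 to 117) included 75. In every other setting run the windows' median height was below the list's. A common minimum height of 26 gave 26.8 per Mb, 2.26% covered and 70.8% clustered (list 54.4%); merging peaks under 500 bp apart gave 26.8 per Mb, 2.61% and 68.8% (list 50.9%). Windows extended by 50 kb had 2.29% covered. Stitching at 5 kb put 60.9% in clusters (47.9 to 72.9%; list 50.8%). The ratio to the rest stayed above 1 in all settings run for it.

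Counts of single windows moved most under the cuts: with the highest-scoring 25%, 0 peaks were left in FOXO1 and MEF2C and 1 in BACH2 and IRF8. At the common minimum height FOXO1 fell to 6 peaks and a ratio of 9.33 (3.39 to 20.5), and BACH2 to 4 and 1.38; extending the windows by 50 kb gave BACH2 2.33 (1.16 to 4.18). With the highest-scoring 50%, the intervals for MEF2C, IRF8 and MYBL1 came to include 1. FOXO1 kept the highest ratio of the 8 under the 4 alternatives added after seeing the data, with BCL11A closest among the highest-scoring 50%, at 7.71 against 7.73. The highest-scoring 25% was not among these 4. There FOXO1 held 0 peaks, while MEF2B kept 4, BCL11A 3 and MYBL1 2, so its lead did not hold. Extending the windows gave LMO2 1 peak and raised the tallest heights of BACH2, FOXO1 and IRF8 to 67, 70 and 77. No paired analysis was possible because each group had 1 library and no test was made. The unknown depth limits every statement on missing peaks.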

Other observations

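At like heights, the deposited significance value differed between the windows. Among peaks of height 45 to 59, the 2 in BACH2 had a median of -44.3, the 2 in FOXO1 of -40.7, the 2 in MEF2C of -39.4, the 2 in BCL11A of -35.6, the 3 in MEF2B of -29.2 and the 2 in IRF8 of -26.1. Over all peaks of those heights the medians were -38.6 on chromosome 6, -40.9 on chromosome 13, -40.1 on chromosome 5, -38.4 on chromosome 2, -28.4 on chromosome 19 and -32.2 on chromosome 16. Of the 2 BACH2 peaks, both of height 54, only 1 was stronger than the chromosome 6 median by this value (-50.5, the other -38.2). The 2 IRF8 peaks (-26.2 and -26.1) were weaker than the chromosome 16 median. Their heights of 46 and 45 stood at the low end of the band.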
